A study of Mus musculus with 12 samples.

Results

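The 10 genes described here are Prkcd, Plekhg1, Rora, Slc17a6, Tcf7l2, Prox1, Rgs16, Nr2f2, Lef1 and Calb2, a set grouped as enriched in thalamus. They are 10 of 17097 genes named on the array, and 26 of 45037 probe sets read them. They were selected on their measured values, since several of them had higher values in brain 3 h after death than at 0 h, so their brain values over time are given as a description with no test. The level of a gene is that of its main probe set, the 1 with the highest mean over all arrays.

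Each of the 12 arrays held 1 combination of tissue (brain or liver), preservation and time after death, from BALB/c mice that were male and 10 weeks old. Formalin-fixed paraffin-embedded (FFPE) pieces spent 24 h in 10% formalin and 7 d as blocks, and were labelled with a whole-transcript kit made for fixed RNA. Fresh-frozen (FF) pieces went into RNAlater, and their RNA was amplified from the 3' end by in vitro transcription with another kit, so preservation and kit always changed together. The times were 0 h, 3 h at room temperature and 18 h at 4 °C, so time and storage temperature changed together as well. All groups share strain, sex and age and carry no treatment or allele. The labels name no brain region, do not give the number of animals, and do not say whether arrays share an animal. No combination has a replicate array. In the fit to all 12 arrays, p-values thus measure how far the changes over time disagree between FFPE and FF arrays. This spread is pooled over brain and liver and may be technical. In bulk tissue fewer cells of a type and less RNA per cell cannot be told apart, and the share of thalamus in a brain piece is not given.

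The thalamus relays sensory and motor signals to the cortex, and its projection neurons are glutamatergic. They load glutamate into vesicles mainly with the transporter VGLUT2, encoded by Slc17a6, whereas most cortical projection neurons use VGLUT1. Among transcription factors, Tcf7l2 is the Wnt-responsive factor that shapes thalamus and habenula, Lef1 is its relative, Rora is a nuclear receptor of relay neurons, and Prox1 and Nr2f2 are also known from other tissues. Prkcd encodes protein kinase C delta, Rgs16 a regulator that shortens G protein signals, and Calb2 the calcium-binding protein calretinin.

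Upstream sequences are shown for 4 of the genes: the pair with the largest difference in brain at 3 h, the VGLUT2 gene, and the nuclear receptor gene Nr2f2. Each is the stretch of 250 bases before the first start site that RefSeq lists for the gene (build GRCm38.p6), read 5′ to 3′ on the gene's strand. Capitals mark CTTTGA or its reverse complement TCAAAG, letters known from TCF/LEF sites, searched on both strands.
Prkcd (chr14:30626209-30626458, minus strand): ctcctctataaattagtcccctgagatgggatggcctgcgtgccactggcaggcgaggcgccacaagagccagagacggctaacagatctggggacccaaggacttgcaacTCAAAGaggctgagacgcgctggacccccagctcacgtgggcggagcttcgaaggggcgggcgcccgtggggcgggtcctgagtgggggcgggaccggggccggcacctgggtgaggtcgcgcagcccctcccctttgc
Plekhg1 (chr10:3872417-3872666, plus strand): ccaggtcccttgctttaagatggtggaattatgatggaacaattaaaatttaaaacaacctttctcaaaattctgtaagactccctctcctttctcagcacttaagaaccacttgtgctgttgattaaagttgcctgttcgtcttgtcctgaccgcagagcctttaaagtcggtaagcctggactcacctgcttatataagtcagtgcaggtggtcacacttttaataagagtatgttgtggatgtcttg
Slc17a6 (chr7:51621580-51621829, plus strand): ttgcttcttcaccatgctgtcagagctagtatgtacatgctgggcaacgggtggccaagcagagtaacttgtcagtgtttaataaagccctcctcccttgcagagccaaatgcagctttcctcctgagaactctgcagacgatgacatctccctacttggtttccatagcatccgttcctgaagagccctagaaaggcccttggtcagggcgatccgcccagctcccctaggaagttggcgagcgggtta
Nr2f2 (chr7:70366747-70366996, minus strand): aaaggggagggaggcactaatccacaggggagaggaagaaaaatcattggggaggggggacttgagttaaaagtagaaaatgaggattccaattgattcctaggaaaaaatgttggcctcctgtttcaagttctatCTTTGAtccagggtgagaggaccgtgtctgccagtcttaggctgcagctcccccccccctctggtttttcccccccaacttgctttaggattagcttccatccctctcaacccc
Of the 10 genes, 9 had at least 1 such window, 16 windows in all, and Calb2 was not in the table. The TCF/LEF letters stood in 3 of these 16 windows, those of Prkcd, Nr2f2 and Lef1, against 13.8% of all 32851 windows of the same length. AGGTCA, the core letters known from binding sites of nuclear receptors such as those encoded by Rora and Nr2f2, stood on either strand in 0 of the 16, against 14% of all windows. The letters TCA are shared by AGGTCA and TCAAAG, so the 2 motifs can overlap, and both were chosen after the array values had been seen.

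Mbp and Alb separated the labelled tissues in both preservations, whereas the astrocyte gene Gfap did so in FFPE alone. Mbp, the myelin basic protein gene, read 10.52 to 11.28 in FFPE brain and 11.71 to 12.08 in FF brain (log2 intensity), against 3.52 to 3.69 in FFPE liver and 4.61 to 5.15 in FF liver. The albumin gene Alb lay between 12.8 and 13.12 on the liver arrays, but it also read 5.53 to 8.74 in FF brain, where the highest value was that of the 0 h array. Across probe sets, Pearson's r between arrays sharing tissue and preservation was 0.973 to 0.995, a description over features that are not replicates. Between the FFPE and the FF array of a given time it was lower, 0.77 to 0.78 for brain and 0.842 to 0.883 for liver.

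In brain, 8 of the 10 genes had their highest FF value at 3 h, against 34.7% of all genes tested, and all 8 were lower at 18 h than at 3 h. The values thus peaked at 3 h and were not equally high in both later arrays. In FF brain all 8 were at least 2-fold higher at 3 h than at 0 h, as were 0.214% of all genes tested. In FFPE brain 3 of the 10 were, against 0.0459% of all genes tested. Nothing is read from these shares, since this difference chose the genes.

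The kinase gene Prkcd showed the largest difference. It read 5.20, 6.54 and 5.19 at 0 h, 3 h and 18 h in FFPE brain, and 5.08, 7.40 and 5.71 in FF brain (log2 intensity). The 3 h array stood above both others in each preservation, by 1.34 over 0 h in FFPE and 2.32 in FF, which is 2.53-fold and 4.99-fold. At 18 h FFPE brain was within 0.01 of its 0 h level, whereas FF brain kept 0.63.

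Plekhg1 followed the same course, with 4.76, 5.93 and 4.96 in FFPE brain and 5.39, 7.15 and 5.79 in FF brain. Its difference at 3 h was 1.17 in FFPE and 1.76 in FF, and its FFPE brain value at 0 h lay below the array median. Slc17a6, the VGLUT2 gene, read 4.24, 5.06 and 4.21 in FFPE brain and 6.81, 8.06 and 6.95 in FF brain. At 18 h it lay within 0.14 of its 0 h level in both preservations, though in FFPE brain both of these values were below the array medians.

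Rora gave nearly equal differences at 3 h in the 2 preservations. Its levels were 6.89, 7.94 and 7.27 in FFPE brain and 6.34, 7.41 and 6.81 in FF brain, so the 3 h excess was 1.05 and 1.07. At 18 h it remained 0.38 and 0.47 above 0 h. Prox1, a homeodomain factor known in brain from dentate granule cells, did likewise at 3 h. It read 4.29, 5.23 and 4.45 in FFPE brain and 3.93, 4.96 and 3.98 in FF brain, and its 18 h values were within 0.16 of 0 h.

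Tcf7l2, Rgs16 and Nr2f2, read by their main probe sets, were at least 2-fold higher at 3 h in FF brain and within 0.19 of 0 h in FFPE brain. Tcf7l2 was flat in FFPE brain at 5.03, 4.99 and 5.07, and read 4.98, 6.73 and 5.13 in FF brain. The Rgs16 values were 5.53, 5.52 and 5.80 in FFPE brain and 4.62, 5.95 and 4.91 in FF brain. Nr2f2 read 4.04, 4.23 and 4.21 in FFPE brain, below the array medians, and 5.67, 7.04 and 6.40 in FF brain. Whether the response differed between preservations was not tested, because the 3 h difference in FF brain is part of what chose these genes.

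Lef1 and Calb2 differed little at 3 h. The single Lef1 probe set stayed between 3.30 and 3.67 on all 12 arrays, below the median of every array (4.65 to 4.68 in FF and 4.8 to 4.89 in FFPE), and is the member that did not pass the filter on low values. Calb2 read 5.64, 5.39 and 5.66 in FFPE brain and 5.54, 5.54 and 5.80 in FF brain, so it was lowest at 3 h in FFPE. The other 9 genes passed the filter.

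**Figure D1:**
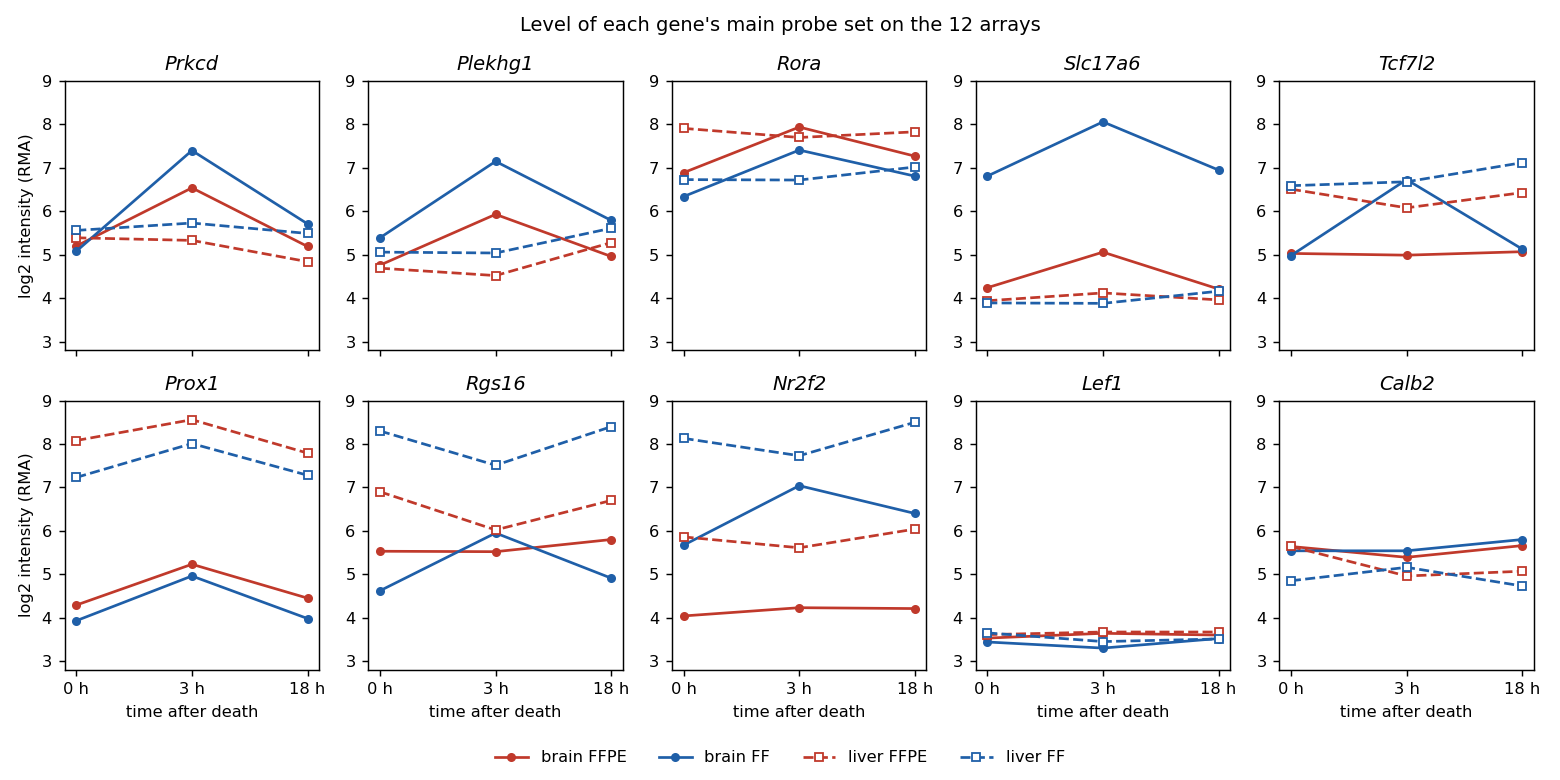
Log2 intensity of each gene's main probe set (vertical axis) at 0 h, 3 h and 18 h (horizontal axis) in brain (filled circles, solid lines) and liver (open squares, dashed lines), FFPE in red and FF in blue, 1 array per point. Prkcd, Plekhg1, Rora, Slc17a6 and Prox1 peak at 3 h in both brain series, Nr2f2 does so by 1.37 in FF and by 0.19 in FFPE, Tcf7l2 and Rgs16 peak in FF alone, and Lef1 stays between 3.30 and 3.67.

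Fitted over both preservations, the differences at 3 h from 0 h were 1.83 ± 0.20 for Prkcd, 1.47 ± 0.16 for Plekhg1, 1.06 ± 0.14 for Rora, 1.04 ± 0.16 for Slc17a6 and 0.99 ± 0.14 for Prox1 (log2 ± SE, 2 arrays per time). The smaller values were 0.86 ± 0.33 for Tcf7l2, 0.78 ± 0.22 for Nr2f2, 0.66 ± 0.26 for Rgs16 and -0.12 ± 0.20 for Calb2. Over all 13073 genes tested the median was 0.02. At 18 h the same 9 genes ranged from 0.06 ± 0.16 for Slc17a6 to 0.45 ± 0.22 for Nr2f2, with a median of 0.28. Both times are set against the same 0 h arrays and so share them. In the fit across all genes (limma, Benjamini-Hochberg), 0.0459% of genes were called higher and 0.0306% lower at 3 h (0.0765% in either direction), and 1 gene (0.00765%) was called higher and 3 lower at 18 h.

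The remaining 16 probe sets of these genes were read on the same arrays and are not independent of the main ones. In FFPE brain 15 of the 16 had their highest value at 3 h, against 35.6% of all probe sets. In FF brain 11 of the 16 did, against 32.9%. Over all 26 probe sets, 17 were highest at 3 h in both preservations, against 12.5% of all probe sets. These shares too are a description, since the brain difference at 3 h chose the genes.

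Which probe set moved depended on the preservation for the 3 genes that were flat in FFPE by their main probe set. Nr2f2 had a second probe set, 1416158_PM_at, that read 5.23, 5.95 and 5.63 in FFPE brain and 4.33, 4.71 and 4.53 in FF brain. It was 0.72 higher at 3 h in FFPE and 0.38 in FF, the opposite order to the main probe set (0.19 and 1.37). The second Rgs16 probe set, 1451452_PM_a_at, gave 0.56 in FFPE and -0.02 in FF, against -0.01 and 1.33 for the main one. For Tcf7l2, 1426639_PM_a_at gave 0.52 and 0.31, and 1429427_PM_s_at gave 0.15 and 1.87. At least 1 probe set of each of the 3 genes was over 0.5 higher at 3 h in FFPE brain. Over all probe sets, 1.74% were at least 0.5 higher. This is a description, since it picks among probe sets by the difference that chose the genes. The places of the probe sets in their transcripts were not used here.

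The genes that moved by the main probe set in both preservations had agreeing second readings in part. The other Slc17a6 probe set, 1418610_PM_at, was 1.08 higher at 3 h in FFPE brain and 0.75 in FF brain, and within 0.24 of 0 h at 18 h. Rora 1436326_PM_at gave 0.80 and 0.92, but its 3 further probe sets ranged from -0.03 to 0.69 in FFPE and from -0.43 to -0.08 in FF. The other Prkcd probe set gave 0.51 and 0.50, that of Plekhg1 0.23 and 0.49, and those of Prox1 0.37 and 0.37 in FFPE and -0.02 and 0.03 in FF. With the mean of all probe sets of a gene, the fitted difference at 3 h became 1.17 for Prkcd, 0.91 for Plekhg1, 0.98 for Slc17a6, 0.45 for Prox1 and 0.41 for Rora.

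**Figure D2:**
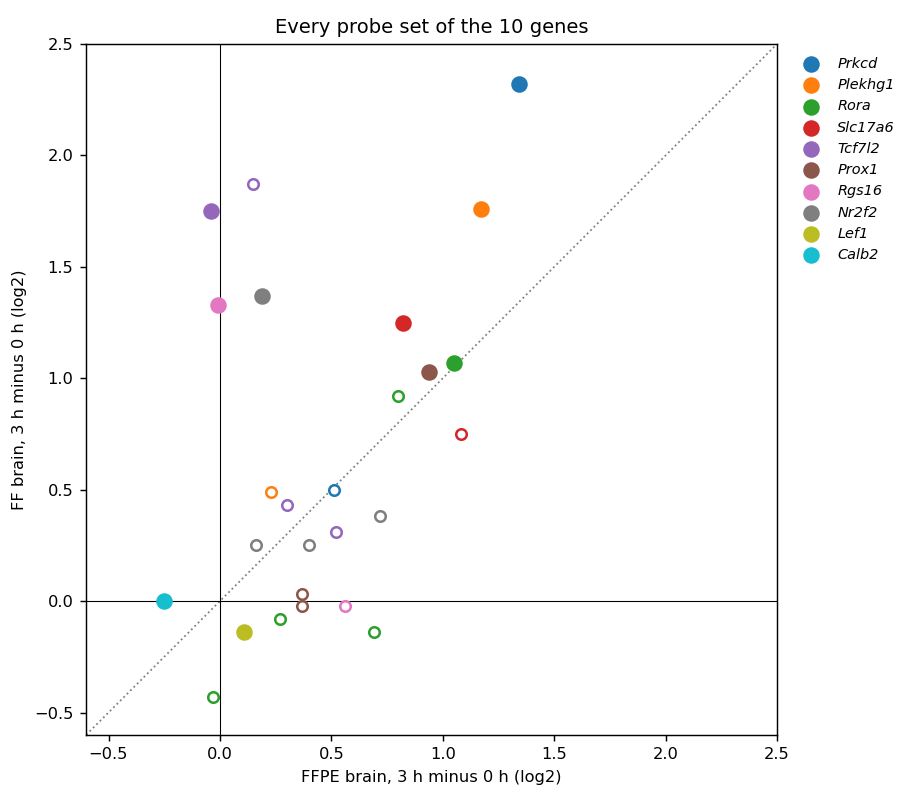
Log2 difference between 3 h and 0 h in FFPE brain (horizontal axis) and FF brain (vertical axis) for all 26 probe sets, 1 colour per gene, filled for the main probe set and open for the others, with a dotted line of equal differences. The main probe sets of Tcf7l2, Rgs16 and Nr2f2 lie near 0 in FFPE and between 1.33 and 1.75 in FF, while an open circle of each lies at 0.52 to 0.72 in FFPE.

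Markers of brain regions and cell types were read in the same arrays, and how far they bear on the values of the 10 genes was not tested. Of 13 other thalamus-enriched genes, 9 passed the filter, and 0 of the 9 passed the test at 3 h in limma in either direction. An unadjusted p under 0.05 was reached by 3 of the 9, and by 684 of all 13073 genes. Their median difference was 0.32 at 3 h and -0.05 at 18 h, and 5 of 9 were higher at 3 h in both preservations, against 28.9% of all genes tested. The largest was Tnnt1, a troponin gene, with 5.01, 5.57 and 5.23 in FFPE brain and 5.92, 7.23 and 5.70 in FF brain (0.94 ± 0.24, adjusted p = 0.385). Amotl1 (0.49) and the receptor-modifying gene Ramp3 (0.44) came next. Gbx2, a homeobox gene of developing thalamus, stayed between 3.44 and 3.80 on the brain arrays and did not pass the filter.

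The 8 striatal genes tested all had lower values at 3 h in both preservations, against 22.8% of all genes, with a median of -0.43 at 3 h and -0.13 at 18 h. Tac1, the substance P precursor gene, passed (-1.13 ± 0.17, adjusted p = 0.0288), and 0 of the other 7 did (limma, 5 of the 8 at an unadjusted p under 0.05). The dopamine receptor gene Drd1 read 6.44, 5.54 and 6.08 in FFPE brain and 8.0, 7.37 and 7.63 in FF brain (-0.76 ± 0.15, adjusted p = 0.157). Its lowest value was at 3 h in each preservation.

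Lists of other forebrain regions had medians nearer 0. The median at 3 h was 0.12 for 8 cortical genes, -0.01 for 6 hippocampal genes, -0.07 for 4 habenular genes and -0.05 for 6 hypothalamic genes, and 0 genes of these lists passed in limma (3 at an unadjusted p under 0.05, 1 cortical and 2 hippocampal). Neurod6, a cortical and hippocampal neuron factor, had the largest cortical value (0.43 ± 0.14), and Dsp, which encodes desmoplakin and is high in dentate granule cells, the largest hippocampal one (0.55 ± 0.21, from 0.07 in FFPE and 1.02 in FF). Of 9 hindbrain and midbrain markers measured, 1 passed the filter, Ddc, the decarboxylase gene of dopamine and serotonin synthesis, with -0.16 ± 0.16 at 3 h. Tph2 and Slc6a4, the serotonin neuron genes, lay between 3.19 and 4.08 in brain. Of 7 cerebellar genes measured, 3 passed the filter, with a median of 0.02 and 0 called (limma, 0 at an unadjusted p under 0.05). These were Neurod1, a neuronal factor also known from hippocampus (0.35 ± 0.16, from 0.04 in FFPE and 0.65 in FF), Car8 (0.02) and Fat2 (0.01). Gabra6 and Pcp2, markers of cerebellar granule and Purkinje cells, lay between 3.60 and 4.77 in brain and did not pass the filter.

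Among non-neuronal lists, those of choroid plexus and oligodendrocytes had the highest medians at 3 h. The 7 choroid plexus genes had a median of 0.92 (0.35 in FFPE and 1.63 in FF), with 1 called higher, the transthyretin gene Ttr (5.40 ± 0.47, adjusted p = 0.00034). The mean level of this list over its 7 genes was 4.79, 6.02 and 5.75 in FFPE brain and 4.79, 6.36 and 5.78 in FF brain. In FFPE brain most of the change in this mean came from Ttr, which read 5.77, 12.52 and 12.03. The list median at 18 h was 0.12 in FFPE and 0.66 in FF. The 12 oligodendrocyte genes had a median of 0.51, with 0 called in limma, 7 at an unadjusted p under 0.05 and 9 higher in both preservations, led by the myelin gene Mag (0.79 ± 0.17). For 9 astrocyte genes the median was 0.21, and for 6 microglial and 6 endothelial genes it was -0.06 and -0.03, with 0 called in these lists (limma, 2 astrocyte genes and no others at an unadjusted p under 0.05). The 9 hepatocyte genes had a median of -0.94 at 3 h (-0.27 in FFPE and -1.61 in FF) and 1 called lower, Apoa1 (-1.75 ± 0.21, adjusted p = 0.00399), a lipoprotein gene of liver. Their mean level on the brain arrays was 5.22, 4.86 and 4.82 in FFPE and 6.38, 4.53 and 4.42 in FF, so it was highest at 0 h.

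Stress-responsive genes were read as well. Of 12 immediate early genes, 0 passed in limma (3 at an unadjusted p under 0.05) and 9 were higher at 3 h in both preservations, with a median of 0.28 at 3 h and 0.18 at 18 h. Arc, a synaptic activity gene (0.75 ± 0.16), and Fos (0.70 ± 0.16) had the largest values. Of 9 hypoxia-inducible genes, 0 passed in limma, 0 had an unadjusted p under 0.05, and the median was -0.13. At 3 h 2 of the 9 were higher and 5 lower in both preservations, against 28.9% and 22.8% of all genes. Ndrg1 had the largest absolute value at 3 h (0.36 ± 0.35). The vascular growth factor gene Vegfa had -0.33 ± 0.15 at 3 h and -0.50 ± 0.15 at 18 h and did not pass.

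**Figure D3:**
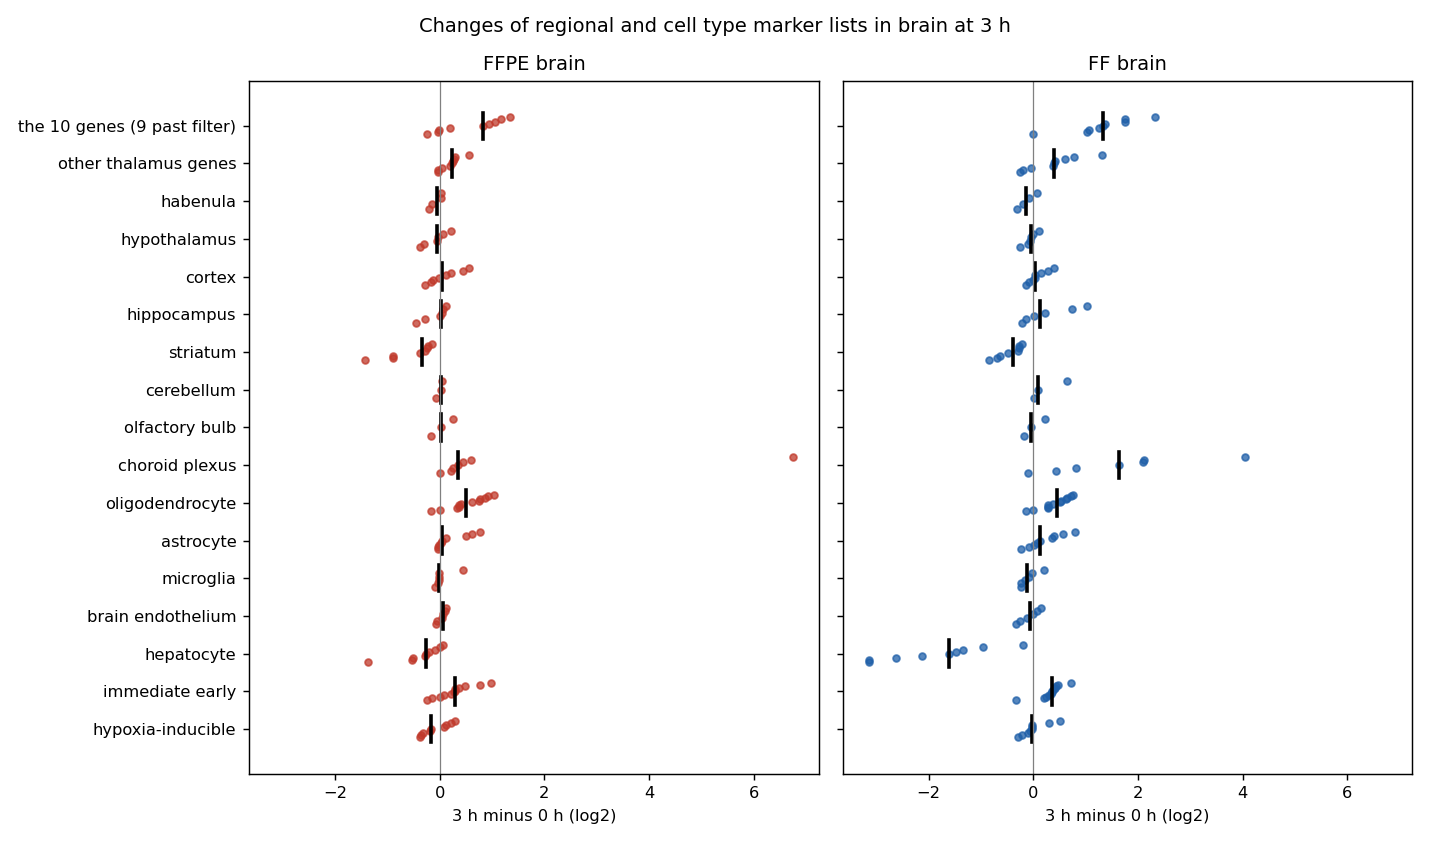
Log2 difference between 3 h and 0 h in FFPE brain (left) and FF brain (right) for each tested gene (points) of the 10-gene set and of 16 marker lists, with the list median as a black bar. The 9 genes of the 10-gene set past the filter have medians of 0.82 and 1.33, all striatal genes lie below 0, and the point at 6.75 and 4.04 is Ttr.

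Pathway partners and relatives of the 10 genes were read too. Of 10 tested Wnt/TCF genes, 0 passed in brain at 3 h (limma, 0 at an unadjusted p under 0.05), and their differences ran from -0.16 for Tcf7l1, a paralog of Tcf7l2, to 0.11 for the receptor gene Lgr5. Of 18 tested paralogs 0 passed (limma, 0 at an unadjusted p under 0.05), and their median was 0.02, equal to that of all genes. They ran from -0.38 ± 0.18 for Rgs2, another regulator of G protein signals, to 0.30 ± 0.18 for Rorb, the relative of Rora that is high in cortex. Slc17a7, the VGLUT1 gene, named here for its pairing with Slc17a6 and not by the rule for named genes, had 0.12 ± 0.13.

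Genes with the most similar course in brain were found over the 6 brain arrays, each preservation centred on its own mean, by their Pearson r with the mean of the 10 genes. Only genes at least 0.5 higher at 3 h in both preservations were eligible, which left 33 besides the members. All of these values share the same 6 arrays and are a description. The nearest was Adcy8, a calcium-stimulated adenylyl cyclase gene (r = 0.987), with 4.23, 4.76 and 4.14 in FFPE brain and 5.31, 6.63 and 5.62 in FF brain. Lbp, the lipopolysaccharide-binding protein gene, followed (r = 0.982), then Baiap2l1 (0.955), Ecrg4 (0.947), Sostdc1 (0.936), Anln (0.936), Hectd2 (0.928) and Tnnt1 (0.925). Tnnt1 is on the list of other thalamus genes and Sostdc1 on the choroid plexus list. Among the 10 genes themselves, r with their own mean was 0.856 to 0.985 for 8 genes, -0.445 for Calb2 and -0.487 for Lef1.

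**Figure D4:**
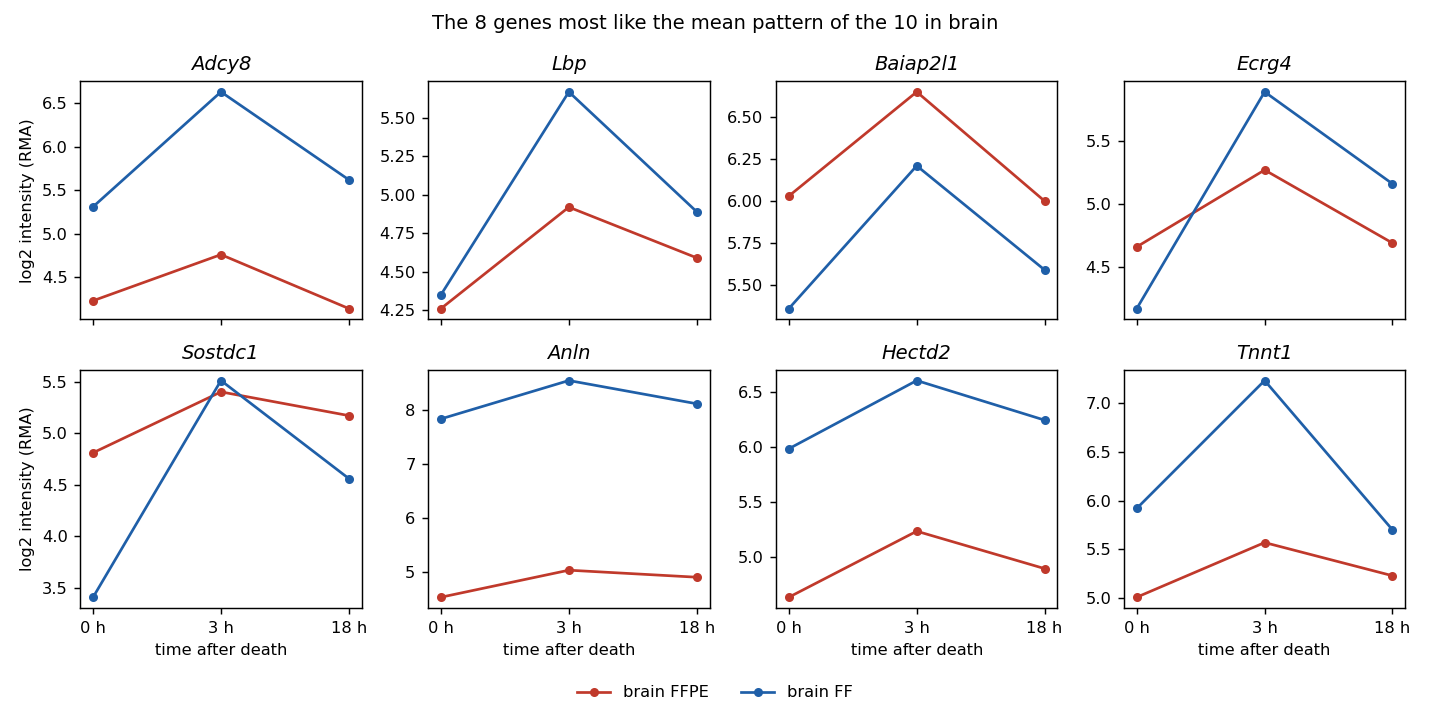
Log2 intensity (vertical axis, its range set per panel) at 0 h, 3 h and 18 h (horizontal axis) in FFPE brain (red) and FF brain (blue) for the 8 genes most like the mean course of the 10, 1 array per point. Adcy8 goes to 4.76 in FFPE and 6.63 in FF at 3 h, and all 8 genes are highest at 3 h in both series.

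Liver arrays were not used to choose the genes, and there the change over time could be tested. The SE in these tests also draws on the brain arrays that chose the genes, since the fit shares its spread per gene across tissues. At 3 h, 0 of the 9 tested members passed (limma, adjusted over all genes), against 0.245% of all genes (0.0765% higher and 0.168% lower). An unadjusted p under 0.05 was reached by 2 of the 9, Prox1 and Rgs16, and by 9.23% of all genes. Prox1, a hepatocyte factor in liver, read 8.08, 8.56 and 7.79 in FFPE liver and 7.23, 8.01 and 7.28 in FF liver, and so was highest at 3 h in both (0.63 ± 0.14, adjusted p = 0.129). Rgs16, which in mouse liver follows feeding, read 6.90, 6.02 and 6.70 in FFPE liver and 8.30, 7.51 and 8.40 in FF liver, and was lowest at 3 h in both (-0.84 ± 0.26, adjusted p = 0.291). All 6 Prox1 values and all 4 Rgs16 values, over their probe sets and both preservations, had these signs. The other 7 genes ranged from -0.33 ± 0.22 for Nr2f2 to 0.08 ± 0.16 for Slc17a6.

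At 18 h in liver 1 of the 9 passed, Plekhg1, against 3.61% of all genes called higher and 10.9% called lower. It read 4.69, 4.52 and 5.28 in FFPE liver and 5.06, 5.04 and 5.61 in FF liver, a difference of 0.57 ± 0.16 (adjusted p = 0.0305). The 18 h array was the highest in each series, and the FFPE values at 0 h and 3 h lay below the array medians. This call was lost without any 1 of the 4 liver arrays at 0 h or 18 h or of the 2 brain arrays at 18 h (adjusted p = 0.0526 to 0.151), and with the mean of probe sets (0.39, adjusted p = 0.0875). Prkcd, the gene with the largest difference in brain, had 0.06 ± 0.20 at 3 h and -0.31 ± 0.20 at 18 h in liver.

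Brain and liver were then compared over the 3 times, 3 arrays against 3 in each preservation. The brain means hold the 0 h and 3 h arrays whose difference chose the genes. Each comparison was also made without the 3 h arrays of both tissues, an alternative added after the data had been seen. The 0 h brain arrays stay in it, so it is not free of the choice. The filter matters as well. Slc17a6 passed it on 4 brain arrays and 0 liver arrays, and Prox1 on 6 liver arrays and 2 brain arrays, too few in brain alone, so their tissue differences are a description with no test. Of the 7 genes that passed in each tissue, 2 were called higher in brain and 4 lower in FFPE, against 29% and 34.5% of all genes (63.5% in either direction). In FF 3 were called higher and 3 lower, against 37.5% and 36.5% (74.1% in either direction).

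Slc17a6 averaged 4.50 ± 0.48 in FFPE brain against 4.01 ± 0.10 in FFPE liver, and 7.27 ± 0.68 in FF brain against 3.98 ± 0.16 in FF liver (log2, SD, n = 3 arrays of different times). Every liver value lay below the median of its array, and the brain and liver arrays did not overlap in either preservation. Prox1 averaged 4.66 ± 0.50 in FFPE brain against 8.14 ± 0.39 in FFPE liver, and 4.29 ± 0.58 in FF brain against 7.51 ± 0.44 in FF liver, also without overlap. Its brain values reached the array median at 3 h alone.

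Rgs16, Nr2f2 and Tcf7l2 were lower in brain than in liver in both preservations. Nr2f2, a nuclear receptor of venous endothelium and liver, had -1.68 ± 0.18 in FFPE (limma adjusted p = 2.06e-06) and -1.75 ± 0.18 in FF (adjusted p = 1.06e-06), though its FFPE brain values lay below the array medians. Rgs16 had -0.92 ± 0.21 (adjusted p = 0.00177) and -2.91 ± 0.21 (adjusted p = 3.05e-08), and Tcf7l2, also a liver Wnt effector, -1.31 ± 0.27 (adjusted p = 0.000768) and -1.18 ± 0.27 (adjusted p = 0.00139). Without the 3 h arrays all 3 genes kept these calls, and the FF difference of Tcf7l2 was -1.80. In FF the brain and liver arrays of Tcf7l2 overlapped, since its brain array at 3 h (6.73) reached the liver range. Without overlap were 5 of the 9 genes in FFPE and 5 in FF, against 65.6% and 74.2% of all genes. Slc17a6 and Prox1 are among them, as a description, since the filter bears on their tissue difference.

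Prkcd and Plekhg1 were called higher in brain, but not without the 3 h arrays. Prkcd had 0.46 ± 0.17 in FFPE (adjusted p = 0.029) and 0.47 ± 0.17 in FF (adjusted p = 0.0217), and without those arrays 0.08 (adjusted p = 0.767) and -0.13 (adjusted p = 0.587). At 0 h it was lower in brain than in liver in each preservation, on brain arrays that also took part in the choice. With the mean of its probe sets it had 0.19 in FFPE (adjusted p = 0.148) and 0.22 in FF (adjusted p = 0.0984), and after quantile normalization 0.17 in FF (adjusted p = 0.285). Plekhg1 had 0.39 ± 0.13 in FFPE (adjusted p = 0.0189) and 0.87 ± 0.13 in FF (adjusted p = 4.1e-05), and without the 3 h arrays -0.12 (adjusted p = 0.536) and 0.25 (adjusted p = 0.176). With the 6 arrays of a preservation alone, both genes lost their calls in FFPE (adjusted p = 0.191 for Prkcd and 0.356 for Plekhg1) and in FF (0.283 and 0.0639). Both FFPE calls were also lost without the FFPE brain array at 0 h or 18 h or the FFPE liver array at 3 h, and that of Prkcd without the FFPE liver array at 18 h. The FF call of Prkcd was lost without any 1 of 4 FF arrays, brain at 3 h or 18 h and liver at 0 h or 3 h.

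Calb2 was higher in FF brain (0.71 ± 0.16, adjusted p = 0.00132), also without the 3 h arrays (0.88, adjusted p = 0.0013), and did not pass in FFPE (0.34 ± 0.16, adjusted p = 0.0812). Rora was lower in FFPE brain (-0.45 ± 0.12, adjusted p = 0.00415) and did not pass in FF (0.03 ± 0.12, adjusted p = 0.823). Its FFPE call was lost after quantile normalization (-0.20, adjusted p = 0.123) and with the 6 FFPE arrays alone (adjusted p = 0.17), and without the 3 h arrays the difference was -0.79 (adjusted p = 0.0023). Of its other probe sets, 1436326_PM_at gave -0.72 in FFPE and -1.60 in FF, and 1436325_PM_at -1.30 and -2.49. With the mean of its probe sets Rora was lower in FF brain (-0.91, adjusted p = 2.68e-05).

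**Figure D5:**
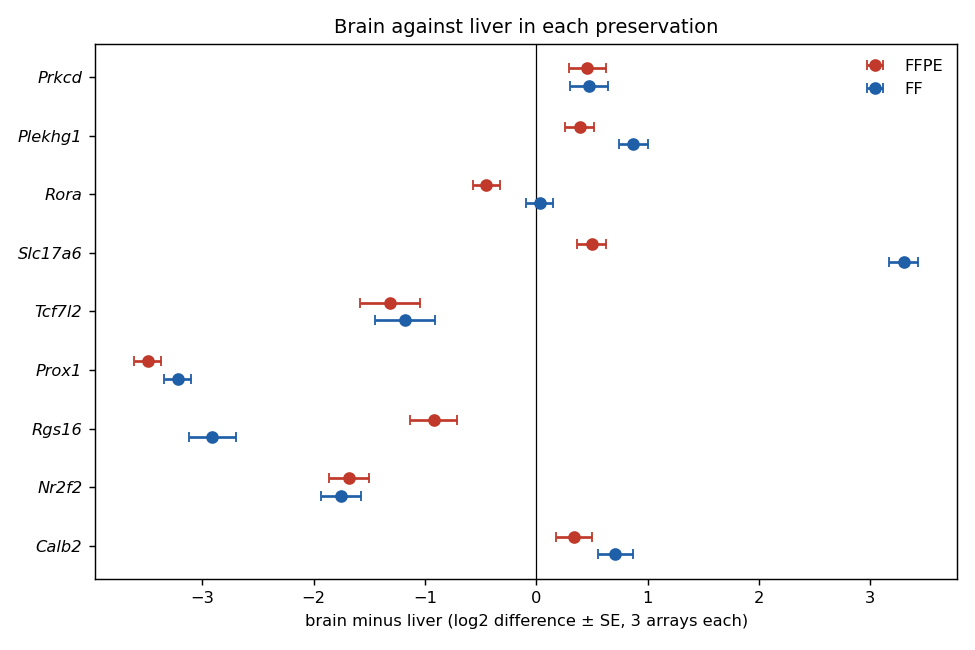
Log2 difference between brain and liver with its SE (horizontal axis) for the 9 genes past the filter (rows), FFPE in red and FF in blue, 3 arrays against 3 with the 3 h arrays included. Prkcd, Plekhg1, Slc17a6 and Calb2 lie above 0 and Tcf7l2, Prox1, Rgs16 and Nr2f2 below 0 in both preservations, and Slc17a6 and Rgs16 differ most between the preservations.

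The order of levels over the 4 combinations of tissue and preservation was read with the overlap of neighbours. Slc17a6 was highest in FF brain and next in FFPE brain, both without overlap with the next series down, and its FFPE and FF liver levels overlapped. Rgs16 was highest in FF liver and next in FFPE liver, with overlapping brain series below. In Nr2f2 the order was FF liver, FF brain, FFPE liver and FFPE brain, and the middle pair overlapped. Neighbouring series overlapped throughout for Plekhg1, Rora, Lef1 and Calb2.

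FFPE and FF levels were compared in each tissue, again 3 arrays against 3. In FFPE brain 2 of the 9 were higher than in FF brain and 4 lower, with Slc17a6 among the lower as a description. The shares over all genes were 28.4% and 53.4% (81.8% in either direction), with a median of -0.42. In liver 2 were higher and 4 lower, against 27.8% and 43.5% (71.2% in either direction), with a median of -0.17 over all genes. After quantile normalization of the 12 arrays these medians were -0.10 and -0.08, and 45.4% of the genes called in brain were higher in FFPE, against 34.7% before it. The brain means hold the 0 h and 3 h arrays that chose the genes, and the 0 h arrays stay when those of 3 h are left out. Without the 3 h arrays 3 members were higher in FFPE brain and 3 lower (Slc17a6 again among them), against 3297 and 6524 of all 13073 genes. Prkcd then had -0.20 (limma adjusted p = 0.381, -0.42 with them) and Rgs16 0.90 (adjusted p = 0.00055, 0.46 with them). Tcf7l2 went from -0.58 to 0.00. Slc17a6 averaged 4.50 in FFPE brain and 7.27 in FF brain, and its other probe set 4.81 and 5.03. Since it passed the filter on 3 FF brain arrays and 1 FFPE brain array, this difference is a description. Nr2f2 had -2.21 ± 0.18 (adjusted p = 1.04e-07) by the main probe set, whereas 1416158_PM_at averaged 5.60 in FFPE brain and 4.52 in FF brain. Rgs16 1451452_PM_a_at was likewise higher in FFPE, with 6.40 against 4.00 in FF brain and 8.28 against 5.58 in FF liver. For Nr2f2, Rgs16, Tcf7l2, Prkcd, Plekhg1, Rora and Slc17a6 the probe sets of the gene differed in the sign of the FFPE minus FF difference in brain or liver. All 5 of Rora were higher in FFPE brain, but in liver 1436326_PM_at had -0.40 against 0.99 for the main one. Those of Slc17a6 differed in liver alone, with 0.03 and -0.13. All 3 of Prox1 were higher in FFPE in both tissues. The FFPE and FF arrays did not overlap for 2 of the 9 genes in brain, against 85% of all genes, and for 5 in liver, against 67.2%. The 2 in brain were both lower in FFPE, Nr2f2 and, as a description, Slc17a6. For 4 of the 9 the difference was itself unequal between brain and liver, 1 higher and 3 lower, against 18.5% and 36.4% of all genes (54.9% in either direction), in a comparison added after the data had been seen. The 3 lower include Slc17a6, again as a description. Without the 3 h arrays 2 of these 4 were called, and 4922 of all 13073 genes, against 7172 with them. Of the 26 probe sets, 16 were higher in FFPE brain than in FF brain and 10 lower.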

How the data were processed

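Gene expression was measured on MG-430 PM arrays, 12 in all. The authors deposited 1 log2 value per probe set and array, and the submitters' processing notes name RMA and Affymetrix Expression Console. Whether all arrays went through RMA together is not given in the sources used here. Leaving out 104 controls kept 45037 probe sets, of which 28898 had a single gene symbol, 551 more than 1 and 15588 no symbol. Genes at or above the array median on at least 3 arrays were tested, 13073 of 17097. Limma 3.58.1 in R 4.3.3 was fitted to all 12 arrays with 8 coefficients (4 tissue-by-preservation means, and a 3 h and an 18 h change per tissue shared by FFPE and FF) and 4 residual degrees of freedom. Two-sided p-values were adjusted by Benjamini-Hochberg across the 13073 genes and called under 0.05. The number of arrays limits the precision. The fit was checked on simulated data. The 10 genes and all marker lists were chosen with earlier results of these data known. Genes named outside the 10 are, per list, the 3 with the largest absolute difference in brain at 3 h and any past the threshold there, and the 8 of most similar course. Gbx2, Tph2, Slc6a4, Gabra6, Pcp2, Mbp, Alb and Slc17a7 fall outside this rule and were named as markers after their values had been seen. The alternatives were the mean of probe sets, the brightest probe set in brain, quantile normalization, no filter, robust variance, 6 arrays alone, and leaving out each array. The tissue difference of the preservation difference, and fits without the 3 h arrays (2 residual degrees of freedom), were added after the data had been seen. Figures were drawn with matplotlib 3.10.9 in Python 3.11.15.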

Additional observations from a re-analysis of the deposited data

Results flagged for a closer look

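For 4 genes the difference between FFPE and FF was not the same in brain and liver, by an interaction term in limma that was added after the data had been seen (18.5% of all genes were called higher and 36.4% lower for this term). Slc17a6 had -2.77 in brain and 0.03 in liver, a difference of -2.80, given as a description because it passed the filter through FF brain. Rgs16 had 0.46 in brain and -1.53 in liver, a difference of 1.99 ± 0.30 (adjusted p = 0.000129), and 2.45 without the 3 h arrays (adjusted p = 6.49e-05). Plekhg1 (-0.49 ± 0.18, adjusted p = 0.0386) and Rora (-0.48 ± 0.16, adjusted p = 0.0254) were close to the threshold, and each lost its call in 10 of the 12 fits that left out 1 array (adjusted p = 0.0548 to 0.18 and 0.0552 to 0.0873). Without the 3 h arrays they had -0.38 (adjusted p = 0.2) and -0.49 (adjusted p = 0.124).

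The change over time had opposite signs in brain and liver, in both preservations, for 4 pairs of gene and time, and this was not tested. At 3 h Plekhg1, Rora and Nr2f2 were higher in brain and lower in liver, with brain minus liver changes of 1.56, 1.17 and 1.11. The liver changes were small, -0.17 in FFPE and -0.02 in FF for Plekhg1, -0.21 and -0.01 for Rora, and -0.25 and -0.40 for Nr2f2. None of these genes passed in liver at 3 h (limma). Other probe sets did not all keep the liver sign. Plekhg1 1440991_PM_at had 0.07 and 0.13, Rora 1436326_PM_at -0.24 and 0.22, and Nr2f2 1416158_PM_at -0.41 and 0.25. The brain part of these values is what chose the genes. At 18 h Calb2 was higher in brain (0.02 in FFPE and 0.26 in FF) and lower in liver (-0.57 and -0.12), a difference of 0.48.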

How the results depend on the processing

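No paired analysis was possible because the labels carry no replicate numbers and each condition has 1 array. With the mean of all probe sets, Rora was lower in FF brain than in FF liver (-0.91), the FFPE minus FF difference became 0.12 in brain and 0.14 in liver for Prkcd and 0.59 in liver for Rgs16, and the interaction for Rora became 0.44. After quantile normalization, where the main Nr2f2 probe set became 1416158_PM_at, FFPE minus FF for Nr2f2 became 1.03 in brain and 2.28 in liver, its interaction -1.24, and that of Rora 0.04. Quantile normalization also moved the share of higher calls to 48.5% for the interaction, against 33.6% without it. Without the 3 h arrays, brain minus liver became -0.13 for Prkcd in FF and -0.12 for Plekhg1 in FFPE. Then 5 of the 9 members passed between brain and liver in FFPE, against 8, and 2 passed for the interaction, against 4. Of all 13073 genes, 6934 passed in the first, against 8304, and 4922 in the second, against 7172. With the 6 arrays of a preservation alone, 4 of the 9 members passed between brain and liver in FFPE and 6 in FF, against 8 in each. Of all genes 7259 and 8926 passed there, against 8304 and 9685. The 9 members counted here and below include Slc17a6 and Prox1, whose tissue differences are a description with no test, as is the interaction of Slc17a6. Over all genes, the liver count at 3 h was 32, and became 21 with the mean of probe sets, 15 with quantile normalization, 19 without the filter and 0 with the 6 liver arrays alone. At 18 h in liver it was 1893, and 994 with those 6 arrays. The 1 member called there was 0 with the mean of probe sets and 0 with the 6 arrays. In brain the count at 3 h was 10, and 4 with the mean of probe sets. At 18 h it was 4, and 2 with the mean of probe sets, without the filter, with robust variance and with the 6 brain arrays alone.

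Leaving out 1 array at a time gave 5 (without FFPE brain at 0 h) to 9 (without FF liver at 0 h) members between brain and liver in FFPE, 0 to 1 in liver at 18 h, and 2 (without FF brain at 3 h) to 3 for the interaction, against 4. Over all genes it gave 7326 to 8777 between brain and liver in FFPE and 6115 to 7614 for the interaction. It also gave 0 (without FFPE liver at 3 h) to 83 (without FF liver at 18 h) in liver at 3 h, and 1115 (without FFPE liver at 0 h) to 1905 in liver at 18 h. In brain it gave 2 (without FF brain at 0 h) to 39 (without FFPE brain at 0 h) at 3 h, and 2 to 31 without the same arrays at 18 h. In brain at 3 h the fitted value ran from -0.01 to 1.72 for Tcf7l2, 0 to 1.32 for Rgs16 and 0.33 to 1.23 for Nr2f2, and from 1.42 to 2.23 for Prkcd. The causes of these differences were not tested. Values below the array medians limit what can be read for Lef1, Slc17a6 in liver and in FFPE brain at 0 h and 18 h, Nr2f2 in FFPE brain, and Prox1 in brain. The same holds for Plekhg1 in FFPE brain at 0 h and in FFPE liver at 0 h and 3 h. It also holds for Prkcd in FFPE liver at 18 h and Rgs16 in FF brain at 0 h.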
